A study of Mus musculus with 30 samples.

Results

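The nuclear-encoded subunits of the oxidative phosphorylation machinery were followed in mammary tumours that arose in Myc-transgenic mice. Myc is a transcription factor with a wide reach over cell growth and metabolism. Members were single-symbol probes whose gene symbol names a subunit of complex I, II, III, IV or V and that had values on at least 24 of the 30 arrays. This kept 75 probes for 75 genes, out of 22800 probes in the table and 13123 single-symbol probes with that many values: 32 for complex I, 4 for complex II, 8 for complex III, 14 for complex IV and 17 for complex V. Of these, 71 had a value in each extract and were tested, and 62 had a value on every array. The untested members were Ndufa3, with a mean log2 ratio of 0.22 over 24 arrays, Uqcrh, at -0.46 over 27, Atp5k, at 0.73 over 26, and Atp5mpl, at 0.46 over 27. The probes just outside the limit were Cox8c, at -0.03 over 21 arrays, Cox7b2, at -0.57 over 20, and a further probe for Atp5md, at 0.71 over 18.

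Oxidative phosphorylation is the process by which mitochondria turn the energy of nutrients into ATP. Complexes I and II take electrons from NADH and succinate, complex III passes them to cytochrome c, complex IV, cytochrome c oxidase, hands them to oxygen, and complex V, the ATP synthase, uses the proton gradient that complexes I, III and IV build. Most subunits are encoded in the nucleus, the remainder by mitochondrial DNA, and several complex IV subunits exist as a general isoform and as an isoform of muscle, lung or other tissues. Mammary epithelium relies on this machinery heavily during milk production, and Myc is known to raise many genes of mitochondrial biogenesis in cultured cells.

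The carcinoma RNA came as 15 extracts, each hybridised on 2 dual-channel arrays with the channels exchanged, against 1 common reference RNA, and no label says what that RNA was made from. Extracts have a number and a letter (540-B, 546-A, 546-B, 547-A, 548-A, 550-A, 561-B, 567-B, 579-A, 579-B, 579-D, 579-E, 579-F, 595-A and 597-B), and the labels do not say which came from separate animals, so that p-values measure the spread between these extracts only. Per the labels, 550-A and 561-B belong to work on tumour progression, 12 extracts to work on epithelial-to-mesenchymal transition, and 595-A has a different description on each of its arrays. The labels name no promoter for the transgene, no strain and no age of the mice.

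Values are log2 ratios of extract and reference. Which channel was the numerator is not stated, so that after the arrays with the extract in channel 2 were turned, a positive ratio means the side on which the Myc probe lay. From the design, positive ratios likely mean a higher level in the carcinoma than in the reference. Below, "Myc side" stands for positive and "opposite side" for negative ratios, and both would change places if the direction were turned. The Myc probe was positive in 15 of 15 extracts at 3.16 ± 0.11 (SE, n = 15 extracts), with 3.18 on channel 1 arrays and 3.14 on channel 2 arrays, and each ± after a mean over extracts is such an SE. All 11 tested epithelial markers lay on the Myc side. Arrays held 13434 to 21991 values, and their number limits the precision. The paired arrays of 1 extract should mirror each other as deposited, with a negative correlation, but did so poorly. Over the 6801 probes with a value on every array the correlation ran only from -0.556 in 567-B to -0.009 in 579-F. Over all 12888 probes tested it ran from -0.472 in 567-B to 0.039 in 579-F. Over the tested members, with the arrays turned so that it should be positive, it ran from -0.59 in 579-E to 0.05 in 579-B. Both orientations are therefore also given separately. In bulk tissue, fewer cells of a type and less RNA per cell cannot be told apart.

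Promoters of 60 of the member genes were found in the RefSeq table of build GRCm38.p6, as 65 windows of 300 bases around the transcript start; 15 genes had no entry under their symbol. Those of Uqcrc1 and Uqcr11 are shown because these genes lay farthest on the Myc side. The windows of Cox6a1 and Cox8b are shown as those of a general and a muscle isoform of complex IV, though not of the same subunit. Capitals mark the core GCATGCGC known from sites of the respiratory factor NRF1 and the core CCGGAAG known from sites of GABP and other ETS factors, each on either strand.
Uqcrc1, GRCm38.p6 chr9:108936398-108936697, strand +: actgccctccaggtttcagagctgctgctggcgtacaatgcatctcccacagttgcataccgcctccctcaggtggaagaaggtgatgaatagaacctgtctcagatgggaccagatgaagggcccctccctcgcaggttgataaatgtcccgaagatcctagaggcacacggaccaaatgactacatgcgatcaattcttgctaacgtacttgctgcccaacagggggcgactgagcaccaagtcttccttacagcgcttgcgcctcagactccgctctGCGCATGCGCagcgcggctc
Uqcr11, GRCm38.p6 chr10:80406772-80407071, strand -: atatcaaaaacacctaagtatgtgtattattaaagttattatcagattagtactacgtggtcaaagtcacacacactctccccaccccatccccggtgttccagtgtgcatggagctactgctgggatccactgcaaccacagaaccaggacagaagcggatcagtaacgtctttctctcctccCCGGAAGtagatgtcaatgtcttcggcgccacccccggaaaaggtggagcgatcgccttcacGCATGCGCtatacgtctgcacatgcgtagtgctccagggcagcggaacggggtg
Cox6a1, GRCm38.p6 chr5:115348909-115349208, strand -: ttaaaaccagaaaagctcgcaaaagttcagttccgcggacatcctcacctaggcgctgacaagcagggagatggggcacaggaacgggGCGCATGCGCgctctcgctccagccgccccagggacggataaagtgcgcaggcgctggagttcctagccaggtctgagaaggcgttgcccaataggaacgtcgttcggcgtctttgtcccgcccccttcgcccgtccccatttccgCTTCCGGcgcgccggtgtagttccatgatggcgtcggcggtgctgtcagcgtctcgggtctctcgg
Cox8b, GRCm38.p6 chr7:140900397-140900696, strand -: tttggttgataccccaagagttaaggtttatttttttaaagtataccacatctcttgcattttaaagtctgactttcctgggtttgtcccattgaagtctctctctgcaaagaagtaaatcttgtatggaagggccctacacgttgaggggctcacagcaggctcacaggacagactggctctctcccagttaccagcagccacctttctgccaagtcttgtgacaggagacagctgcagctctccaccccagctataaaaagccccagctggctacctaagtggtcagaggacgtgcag
The windows of Uqcrc1, Uqcr11 and Cox6a1 held 15, 16 and 32 CpG dinucleotides, against 2 in that of Cox8b, which held neither core. Over all member windows 13.8% held GCATGCGC, against 2.71% of the 32851 mouse promoter windows, and 23.1% held CCGGAAG, against 8.86%. The core AAGATGGC, known from sites of YY1, stood in 15.4% of member windows, against 2.75% of all windows, and the E-box CACGTG, which Myc can bind with Max, in 9.23%, against 7.15%. Both strands were searched. CACGTG reads the same on either strand, GCATGCGC can overlap its own reverse complement, and a match describes letters only. The letters of the 4 motifs were chosen after the promoters had been looked at.

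The comparison with the common reference asked how these carcinomas stand apart from it. Genes of all 5 complexes lay on the Myc side, led by complex III. Of the 71 tested members, 45 (63.4%) passed on the Myc side, where 30.4% of all 12888 probes tested did, and 2 passed on the opposite side, where 16.9% of all probes did (limma on extract means against 0, Benjamini-Hochberg adjusted p under 0.05 over all probes). The remaining 24 did not pass. The median log2 ratio of the members was 0.38, against 0.13 over all probes, and after each array's median was subtracted it was 0.29, against 0.03. These shifts were not the same in both array orientations: with the medians subtracted, the members' median was 0.74 on channel 1 arrays and -0.11 on channel 2 arrays, so that the excess over other probes rested on the channel 1 arrays. The details of that split are given after the complexes.

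Complex III passed with 5 of 7 tested subunits on the Myc side, none on the opposite side, and a median of 0.79. Uqcrc1, a core protein of the complex, ran from 0.43 in 546-A and 0.44 in 550-A over a median of 1.04 to 1.71 in 547-A. It was positive in all 15 extracts and on 29 of 30 arrays, at a mean of 1.11 ± 0.11 (SE, n = 15 extracts; limma adjusted p = 2.22e-07), a 2.15-fold difference. Uqcrc2, the other core protein, averaged 0.73 ± 0.12, and Uqcrfs1, the Rieske iron-sulphur protein that carries electrons to cytochrome c1, averaged 0.84 ± 0.11, so that all 3 members of this inner group passed. Uqcr11, a small accessory subunit, had values of -0.01 in 546-A and 0.04 in 550-A and of 0.76 to 1.43 in the other 13 extracts, with a mean of 1.03 ± 0.12. Uqcr10, another small subunit, was split more widely, with -1.52 in 546-A and -0.32 in 550-A against a highest value of 1.59 in 579-D, and its mean was 0.79 ± 0.19. The small subunits Uqcrb, at 0.08 ± 0.10, and Uqcrq, at -0.22 ± 0.23, did not pass.

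The cytochromes that follow the Rieske protein in the chain lay beside the leading members of complex III. Cyc1, the cytochrome c1 that receives electrons inside the complex and has a symbol outside the member rule, averaged 1.13 ± 0.11, and Cycs, the mobile cytochrome c, averaged 0.87 ± 0.16. Both passed on the Myc side in limma (adjusted p = 2.46e-07 and 1.91e-04), and these were the 2 genes tested of a list that also named the mitochondrial DNA genes, which are not analysed here.

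In complex I, 19 of 31 tested subunits passed on the Myc side, none on the opposite side, and the median was 0.37. The leading genes were accessory subunits. Ndufb2, a subunit of the membrane arm, ran from 0.18 in 550-A over a median of 1.02 to 1.46 in 579-D and was positive in all 15 extracts, at a mean of 0.95 ± 0.10 (limma adjusted p = 7.22e-07). Ndufs6, which sits beside the electron-carrying module, averaged 0.94 ± 0.09, and the membrane-arm subunits Ndufc2 and Ndufb7 averaged 0.90 ± 0.11 and 0.82 ± 0.12. The 5 tested core subunits, which are shared with bacteria and include those with the flavin and iron-sulphur clusters, lay close together, with a median of 0.36, against 0.38 for the accessory subunits. Ndufv2, at 0.43, Ndufs3, at 0.40, Ndufv1, at 0.36, and Ndufs1, at 0.35, passed, and Ndufs7, at 0.25 ± 0.12, did not. With array medians subtracted, all 5 core subunits were positive on channel 1 arrays and negative on channel 2 arrays, with medians of 0.81 and -0.29. The 26 accessory subunits ranged from -0.15 for Ndufa1 to 0.95, and 15 of them passed. Ndufa2 lay nearest to 0, with a lowest value of -0.22, a median of 0.03, a highest value of 0.38 and a mean of 0.02 ± 0.08. The probe named Ndufs5-ps, at 0.56 ± 0.09, is annotated to a pseudogene and may read its parent gene. Ndufa4, at 0.50 ± 0.09, is today assigned to complex IV.

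Complex II, which is also the succinate dehydrogenase of the citric acid cycle, passed with 2 of 4 tested subunits on the Myc side, none on the opposite side, and a median of 0.26. Sdhd, a membrane anchor, ran from 0.02 to 0.93 with a median of 0.48 and a mean of 0.49 ± 0.09 (limma adjusted p = 1.41e-04). Sdhb, the iron-sulphur subunit, ran from 0.12 to 0.69 with a median of 0.44 and a mean of 0.40 ± 0.07 (adjusted p = 1.42e-04). Both were positive in every extract. Sdha, the flavoprotein, at 0.13 ± 0.11, and Sdhc, the other anchor, at 0.12 ± 0.09, did not pass, and each had extracts on both sides of 0. Differences between the subunits were not tested. The anchors Sdhd and Sdhc were alike on channel 1 arrays, at 0.84 and 0.86, and stood at 0.14 and -0.62 on channel 2 arrays.

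In complex V, 11 of 15 tested subunits passed on the Myc side and none on the opposite side, with a median of 0.48. Atp5a1, the alpha subunit of the catalytic head, had its lowest value of 0.24 in 550-A, a median of 0.99 and a highest value of 1.67 in 567-B, with a mean of 0.99 ± 0.10 (limma adjusted p = 3.87e-07), and was positive in every extract. The catalytic beta subunit Atp5b averaged 0.59 ± 0.10, the delta subunit Atp5d 0.57 ± 0.09 and the gamma subunit Atp5c1, the rotating shaft, 0.48 ± 0.10, whereas Atp5e, the epsilon subunit, at 0.17 ± 0.12, did not pass. All 4 tested subunits of the peripheral stalk, which holds the head still, passed: Atp5o averaged 0.92 ± 0.10, Atp5pb 0.62 ± 0.10, Atp5j 0.45 ± 0.08 and Atp5h 0.38 ± 0.10. The genes for the c-ring, the proton-driven rotor, encode the same mature protein. Atp5g2 averaged 0.55 ± 0.13 and passed. Atp5g1 had a lowest value of -1.0, a median of -0.33, a highest value of 0.90 and a mean of -0.16 ± 0.14, and did not pass. The difference between these genes was not tested. Atp5g1 had values on 27 arrays, and 40.7% of them equalled the log2 of a ratio of small whole numbers, against 16.7% for Atp5g2. On channel 1 arrays Atp5g1 averaged 0.27 and Atp5g2 0.96, and on channel 2 arrays -0.51 and 0.13. The probe named Atp5k-ps1, at 0.37 ± 0.09, is annotated to a pseudogene and may read its parent gene.

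**Figure D1:**
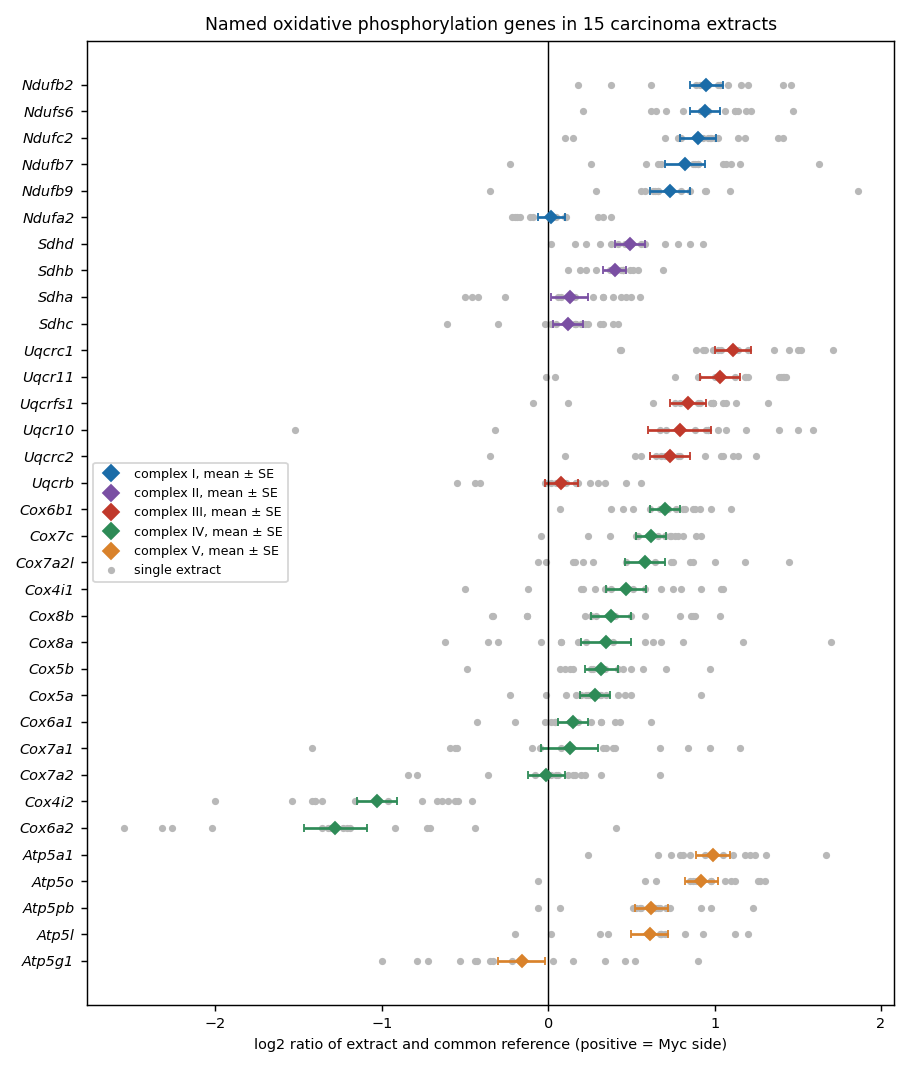
Log2 ratio of extract and reference for the 34 genes named by rule, from complex I at the top to complex V at the bottom. Grey points are the 15 single extracts and diamonds the mean with its standard error; most diamonds lie right of 0, led by Uqcrc1 at 1.11, and Cox4i2 and Cox6a2 lie left of it at -1.03 and -1.28.

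Complex IV held the only members that passed on the opposite side. Of its 14 tested subunits 8 passed on the Myc side and 2 opposite to it, with a median of 0.32. Cox6b1, the subunit that faces the space between the mitochondrial membranes, ran from 0.07 over a median of 0.77 to 1.10, with a mean of 0.70 ± 0.09 (limma adjusted p = 4.08e-06). Cox7c averaged 0.62 ± 0.09, Cox4i1 0.47 ± 0.12, Cox5b 0.32 ± 0.10, Cox6c 0.32 ± 0.09 and Cox5a 0.28 ± 0.09, and all of these passed. Cox7a2l, a relative of Cox7a2 that joins complexes III and IV into supercomplexes, passed at 0.58 ± 0.12, with -0.24 on channel 1 and 1.39 on channel 2 arrays.

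The isoform pairs of complex IV did not move as 1 group. Cox6a2, the heart and skeletal muscle form of subunit VIa, ran from -2.55 in 579-D over a median of -1.23 to 0.41 in 546-B, at a mean of -1.28 ± 0.19 (limma adjusted p = 3.30e-05), a ratio of 0.41. It was positive only in 546-B. Its general counterpart Cox6a1 averaged 0.15 ± 0.09 and did not pass. Cox4i2, the form of subunit IV found in lung and raised by low oxygen, ran from -2.0 in 546-A over a median of -0.96 to -0.46 in 579-E. It was negative in all 15 extracts, at a mean of -1.03 ± 0.12 (adjusted p = 3.35e-06), whereas its general counterpart Cox4i1 was positive in 13. Averaged over both orientations, the other muscle forms did not lie on the opposite side. Cox7a1 averaged 0.13 ± 0.17 beside -0.01 ± 0.11 for the general form Cox7a2, and neither passed. Cox8b, a muscle and brown-fat form, passed on the Myc side at 0.38 ± 0.12 beside 0.35 ± 0.15 for the general form Cox8a, which did not pass. On channel 1 arrays alone the muscle forms Cox7a1 and Cox8b were negative too, at -1.65 and -1.14, as was the general form Cox8a, at -1.44, and on channel 2 arrays all 3 were positive.

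**Figure D2:**
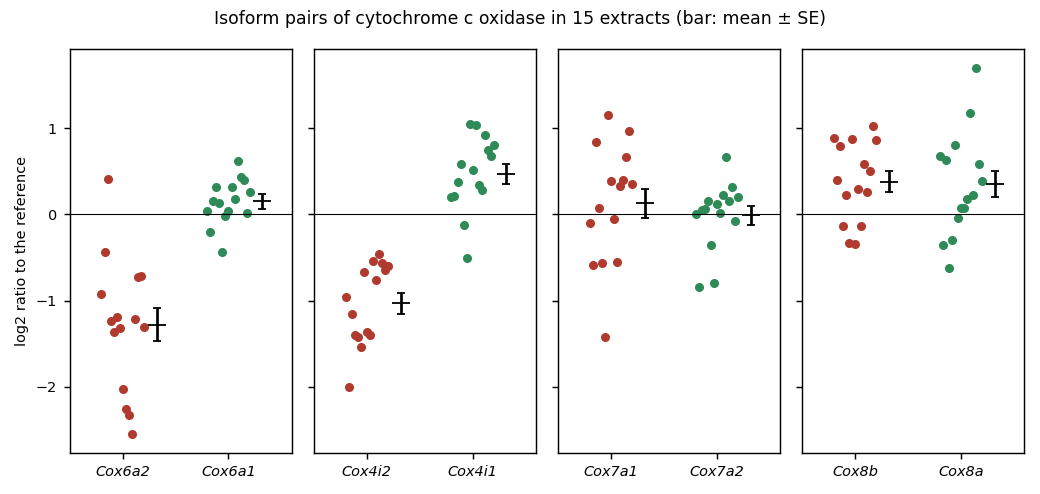
Log2 ratios of 4 complex IV isoform pairs in the 15 extracts, tissue form left and general form right in each panel. Points are extracts in the order of their codes and bars the mean with its standard error; Cox6a2 and Cox4i2 lie below their general forms, and the Cox7a and Cox8 pairs overlap.

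Skeletal muscle markers stood beside these isoforms as follows. Of 8 tested, 1 passed on the opposite side and none on the Myc side. It was Eno3, at -0.63 ± 0.19, with -1.43 on channel 1 and 0.16 on channel 2 arrays. The mean of the list ran from -1.16 in 579-B to 1.65 in 546-A and 1.96 in 546-B. Cox6a2 was highest in those same 2 extracts of number 546, with 0.41 in 546-B and -0.44 in 546-A. The part of muscle tissue in the extracts' or the reference's Cox6a2 level was not tested. Cox6a2 and Cox4i2 were also dim by one measure: 26.7% and 42.9% of their values equalled the log2 of a ratio of small whole numbers, against a median of 10% over the members and 17.2% over all probes tested.

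Splitting the arrays by the channel of the extract showed where the 2 orientations differed. On channel 1 arrays alone 43 members (60.6%) passed on the Myc side, against 23.9% of all probes, and on channel 2 arrays alone 36 (50.7%) did, against 45.5% of all probes. The members' share on channel 2 arrays thus lay near that of all probes. With array medians subtracted the counts were 53 (74.6%, against 35.3% of all probes) on channel 1 arrays and 11 (15.5%, against 25.6%) on channel 2 arrays, and on channel 2 arrays 16 members (22.5%, against 31.6% of all probes) passed on the opposite side. Without centring, 50 members (70.4%) had a positive mean in both orientations, against 33.9% of all probes, and 23 (32.4%) passed on the Myc side in each orientation alone. With centring, the 5 members (7.04%) that passed on the Myc side in each orientation alone were Ndufb2, Ndufs6, Sdhb, Uqcrc1 and Uqcrfs1. Uqcrc1 then stood at 1.56 on channel 1 and 0.47 on channel 2 arrays, and Sdhb at 0.35 and 0.26. The share of all probes that passed in each orientation was not counted. Whether 32.4% or 7.04% exceeds it is therefore not known.

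Single members split far more. The means of the 2 orientations lay over 2 apart in 5 of the 71 members (7.04%), against 1795 of all 12888 probes (13.9%). Ndufs4, an accessory subunit of complex I known from an inherited mitochondrial disease, averaged -2.01 on channel 1 arrays and 2.18 on channel 2 arrays. Cox8a averaged -1.44 and 2.13, Cox7a1 -1.65 and 1.91, and Cox8b -1.14 and 1.91, so that their means over both orientations lie between values of opposite sign. The call of Cox6a2 rested on the channel 1 arrays, where it averaged -2.68, while it averaged 0.13 on channel 2 arrays. Cox4i2 was negative in both, at -1.72 and -0.25. Sdhc had the opposite split, with 0.86 and -0.62. Over the 71 members the means of the 2 orientations correlated at r = -0.32 (Spearman's rho = 0.15), a description over members that share arrays and dyes. Over all probes tested r was 0.27 (rho = 0.04). The cause of the split between orientations was not tested.

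**Figure D3:**
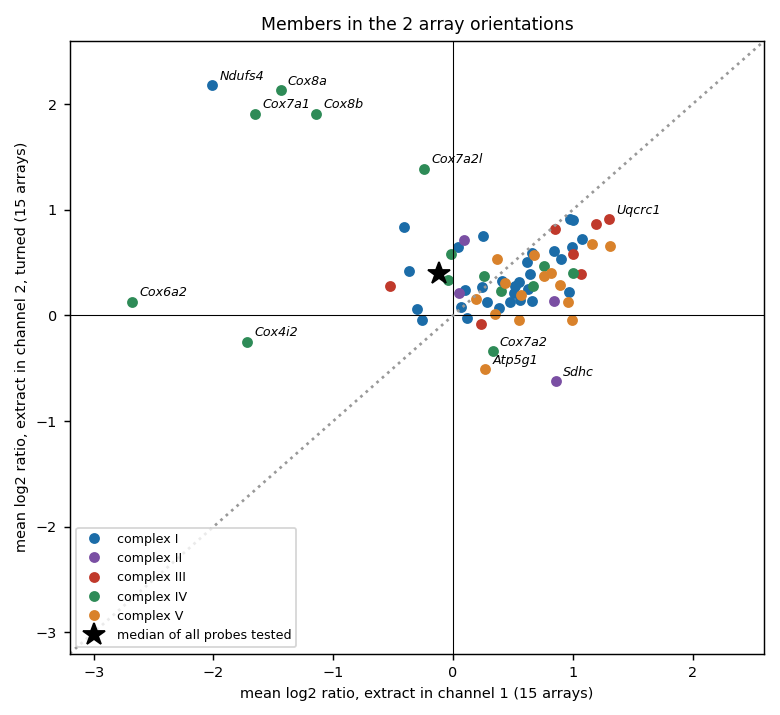
Mean log2 ratio of each tested member on the 15 arrays with the extract in channel 1 (horizontal) and on the 15 arrays with it in channel 2 (vertical, turned to the same sign). Colours mark the complexes, the dotted line equal values and the star the median of all probes tested, at -0.12 and 0.39; most members lie right of the star and near its height, and Ndufs4, Cox8a, Cox8b, Cox7a1 and Cox6a2 lie far from the line.

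The extracts were compared next, to ask which carcinomas carried the members high or low. The members' median was positive in 14 of 15 extracts. It was -0.33 in 550-A, 0.11 in 546-A and 0.22 in 548-A, and ran from 0.32 in 540-B to 0.64 in 579-D in the others. In 550-A only 16 of 71 members were positive, against 69 in 597-B, and 550-A gave the lowest value of 44 members and the highest of none. Relative to their mean in the other 14 extracts, 69 members (97.2%) were lower in 550-A, against 69.2% of all probes, by a median of -0.76. The low level stood on both arrays of 550-A, where the members' medians were -0.11 and -0.43. With array medians subtracted they were 0.15 on the channel 1 array and -0.30 on the channel 2 array, where 546-A, 579-E, 579-F and 595-A were lower, and the members' median over both arrays was then -0.13 in 550-A and -0.03 in 546-A. Leaving out 550-A raised the members that passed on the Myc side against the reference to 49, leaving out 546-A to 50, and leaving out both to 54, an exclusion chosen after seeing the data. Over all 12888 probes the count rose too, from 3912 to 4075, 3956 and 4182 in the same order.

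In each complex 550-A had the lowest median of the 15 extracts: -0.43 for complex I, -0.14 for complex II, -0.32 for complex III, -0.34 for complex IV and -0.14 for complex V. In 547-A, which gave the highest value of 18 members, they were 0.65, 0.59, 1.32, 0.32 and 0.66. In 546-A, which gave the lowest value of 13 members, complex III stood at 0.10 and complex II at 0.36. The fibroblast markers were highest in 546-A, 550-A and 540-B, with a mean of 0.18, 0.16 and 0.06, and low in 548-A, at -2.65. The members' median was the third lowest in 548-A, but the median of all probes was also lowest there, at -0.25. With array medians subtracted, the members' median in 548-A was 0.44. In the other extracts the mean of the fibroblast markers lay between -3.19 in 579-D and -0.89 in 561-B. The epithelial markers did not follow, with a mean of 2.59 in 550-A and 3.32 in 546-A in a range from 1.74 to 3.32. The part of fibroblasts in the members' level was not tested. 546-A and 548-A also held the fewest values, with 14643 and 13434 on their thinner arrays, and 7 members rested on 1 array in 546-A.

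**Figure D4:**
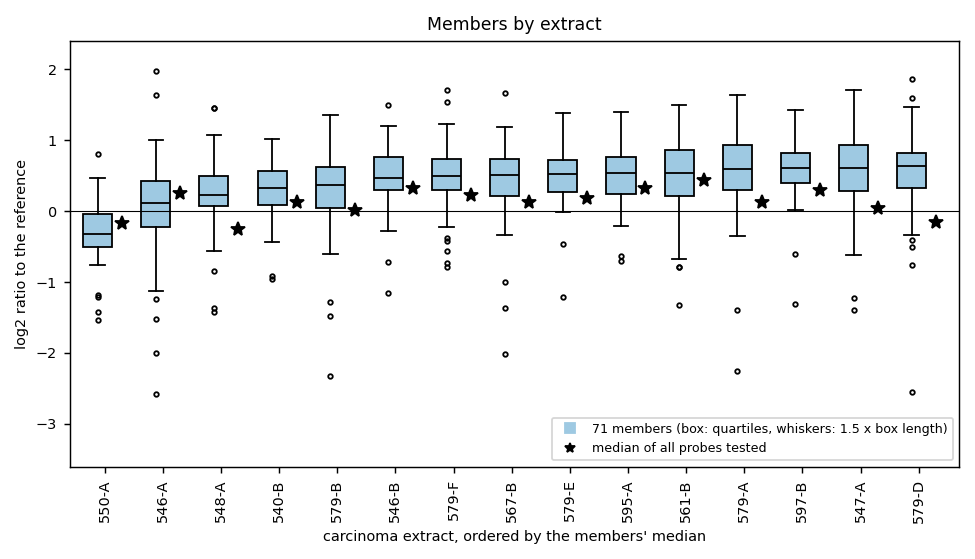
Log2 ratios of the 71 tested members in each extract, ordered by their median. Boxes show quartiles, lines the median, and stars beside each box the median of all 12888 probes tested; members lie below the star in 550-A and 546-A and above it in the others.

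**Figure D5:**
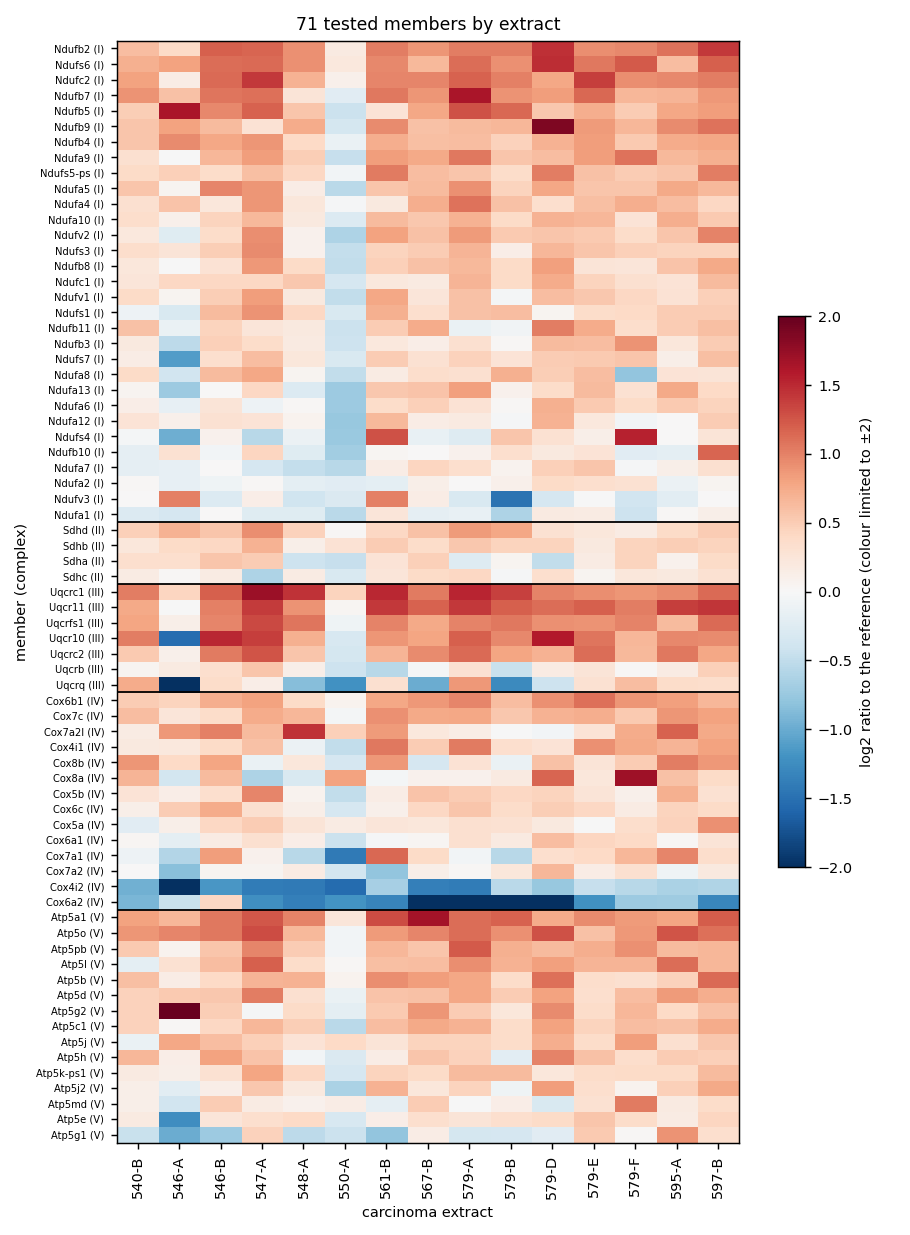
Log2 ratio of each tested member (rows, grouped by complex) in each extract (columns), red on the Myc side and blue on the opposite side. The column of 550-A is mostly blue, and the rows of Cox4i2 and Cox6a2 are blue across most extracts.

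Differences between extracts were tested against the difference between paired arrays of 1 RNA, with limma's F-test and a dye term. Of the 71 members 2 (2.82%) passed, where 6.73% of all probes did. They were Uqcrc2 (adjusted p = 0.0387), which ran from -0.35 in 550-A over a median of 0.78 to 1.25 in 547-A, and Ndufb9, a membrane-arm subunit of complex I (adjusted p = 0.0392), which ran from -0.35 in 550-A over a median of 0.66 to 1.86 in 579-D. The 71 members varied with a median SD of 0.37 between extracts, against 0.62 over all probes. With array medians subtracted 0 members passed, where 726 of all 12888 probes did, and without the dye term 0, where 393 did. Among probes with a value on every array 5 of 62 members passed, where 952 of 6801 probes did.

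The extracts of number 579 were set against the others because 579 is the only number with more than 2 extracts. No member passed (limma adjusted p under 0.05; 0% of all 12888 probes did), and 3 members reached an unadjusted p under 0.05, as did 460 of all probes. Cox6a2 averaged -1.81 in the 5 extracts of number 579, against -1.01 in the 10 others, a difference of -0.80 ± 0.37 (SE). Cox7a2l averaged 0.22 in 579 and 0.76 in the others, and Cox6a1 0.39 in 579 and 0.03 in the others. The members' median difference was 0.14, against -0.05 over all probes. In 579, 59 of 71 members were higher, against 5550 of all 12888 probes, a count over members that share the same extracts.

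The 2 extracts described under tumour progression were set against the 12 described under epithelial-to-mesenchymal transition. No member passed (0.00776% of all probes, 1 probe, did), and 5 members reached an unadjusted p under 0.05, as did 525 of all probes. The largest difference was that of Ndufb5, a membrane-arm subunit of complex I, which had -0.43 in 550-A and 0.28 in 561-B and averaged -0.07, against 0.89 in the 12 extracts, a difference of -0.96 ± 0.32 (adjusted p = 1). Of the 71 members 64 were lower in the tumour progression extracts, against 6049 of all 12888 probes, a count over members that share the same extracts. The members' median difference was -0.32, against 0.03 over all probes. The sign of the members' median rested on 550-A, since without it the median difference was 0.03, and without 561-B it was -0.75. All probes moved with these exclusions too, to a median of 0.34 without 550-A and of -0.28 without 561-B, so that the members lay below all probes in both.

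Genes that serve the complexes were read from lists for the same pathway, whose counts stand beside the 30.4% of all probes on the Myc side, the 16.9% on the opposite side and the all-probe median of 0.13. Of 30 tested assembly factors 14 passed on the Myc side and 1 opposite to it, with a median of 0.23. Coa3, which stabilises the first complex IV subunit during its synthesis, averaged 1.37 ± 0.11, and Cox20 and Cox14, which also help the mitochondrially encoded subunits into complex IV, 0.70 ± 0.09 and 0.67 ± 0.13. Timmdc1, an assembly factor of the complex I membrane arm, averaged -0.74 ± 0.22. The mean of this list was lowest in 550-A too, at -0.35.

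Of 19 tested genes of pyruvate entry and the citric acid cycle, 11 passed on the Myc side and 1 opposite to it, with a median of 0.31. Pdhb, a subunit of pyruvate dehydrogenase, averaged 0.94 ± 0.13, Suclg1, a subunit of succinyl-CoA synthetase, 0.84 ± 0.12, and Idh3a, a subunit of the NAD-dependent isocitrate dehydrogenase, 0.66 ± 0.11. Pdk3, a kinase that switches pyruvate dehydrogenase off, averaged -0.30 ± 0.10 and passed on the opposite side. Citrate synthase, Cs, at -0.05 ± 0.11, did not pass. The list's mean was lowest in 550-A, at -0.28.

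Of 10 tested regulators of mitochondrial biogenesis 4 passed on the Myc side and 0 on the other, and their median was 0.07, below that of all probes. Pprc1, a coactivator of respiratory genes, averaged 0.65 ± 0.13, Polg, the mitochondrial DNA polymerase, 0.63 ± 0.16, Tfb2m, a mitochondrial transcription factor, 0.53 ± 0.15, and Yy1 0.36 ± 0.08. The coactivator Ppargc1a, at 0.12 ± 0.29, and the factors Nrf1, at -0.13 ± 0.13, Gabpa, at -0.19 ± 0.23, Esrra, at -0.28 ± 0.24, and Tfam, at -0.33 ± 0.29, did not pass. Several of these means lie between values of opposite sign on channel 1 and channel 2 arrays. Ppargc1a averaged -1.54 and 1.78, Esrra -1.68 and 1.12, Nrf1 -0.92 and 0.66, and Gabpa -0.53 and 0.15. Tfam was negative on both, at -0.63 and -0.21.

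Of 8 tested carriers and uncouplers 5 passed on the Myc side and 1 opposite to it, and the ADP/ATP carriers, which exchange the ATP that complex V makes, lay on different sides. Slc25a5, the form of growing cells, averaged 1.08 ± 0.10 (limma adjusted p = 1.07e-07), and Slc25a4, the form of heart and muscle, -0.43 ± 0.10 (adjusted p = 0.00143). Ucp1, the proton leak of brown fat, averaged 2.30 ± 0.13, and it is also on the adipocyte marker list. Of the 7 tested adipocyte markers, the only other one that passed was Fabp4, on the Myc side at 2.06 ± 0.39. Ucp1 and Fabp4 were positive in both array orientations. The other adipocyte markers, Adipoq and Cidea among them, did not pass and ranged from -0.16 to 0.44. Each of these means lies between a negative value on channel 1 arrays and a positive one on channel 2 arrays. Adipoq averaged -1.82 and 2.22, and Cidea -0.58 and 1.76. The phosphate carrier Slc25a3, at 0.49 ± 0.08, and the outer-membrane channels Vdac1, at 0.54 ± 0.08, and Vdac2, at 0.49 ± 0.09, passed, and Vdac3, at -0.01 ± 0.09, did not.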

How the data were processed

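RNA of 15 carcinoma extracts was measured against a common reference on 30 dual-channel arrays. The deposited table holds the authors' log2 ratios for 22800 probes; the log2 scale was read from the values, and neither labels nor table name a background correction, normalization or build. The value 16.61, a placeholder, and blank cells were treated as missing, which left 84.8% of the table. Arrays with the extract in channel 2 were turned, the paired arrays were averaged, and 12888 probes with values on at least 24 arrays and in every extract were tested, without centring, in limma 3.58.1 (R 4.3.3), with Benjamini-Hochberg adjustment over all of them and a threshold of 0.05. With a single reference RNA, the tests do not include any spread of the reference. The fits were tested on simulated data. Symbols came from the platform annotation (16874 probes with 1 symbol, 134 with several).

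The members and gene lists were chosen with earlier results of these data known, and subgroups within complexes after the members had been seen. Named genes were, per complex, the 4 largest called on the Myc side, the 3 largest on the opposite side and the member nearest to 0, with all complex II subunits, the listed complex IV isoforms and members past another test. Others given with values were chosen after their values were seen. A list's mean in an extract is over its tested genes. Alternatives were array medians subtracted, each orientation alone with and without centring, other probe and extract filters, and the extract number as a block or averaged.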

Additional observations from a re-analysis of the deposited data

Results flagged for a closer look

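Over 80 groups of extracts and quantities examined, 6 held a value whose gap to its neighbour was large for the group's range by Dixon's test, which chance gives in about 1 of 20 groups. Of these, 3 lay within the 5 extracts of number 579. Ndufb2 reached 1.46 in 579-D, where the next value was 1.03, and Ndufb9 reached 1.86 in 579-D, where the next was 0.85. Sdhb was lowest in 579-E, at 0.19, where the next value was 0.45. The other 3 were all 550-A among the 10 extracts of other numbers: Atp5o stood at -0.06 there, where the next value was 0.65, the median of complex IV at -0.34, where the next was 0.12, and the median of all members at -0.33, where the next was 0.11.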

How the results depend on the processing

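Of the 45 members on the Myc side against the reference, the count stayed within 1.5 times under the alternatives except on channel 2 arrays with medians subtracted, where it was 11. The count on the opposite side, 2, became 6 on channel 1 arrays with medians subtracted (8.45%, against 24.6% of all probes). It became 16 on channel 2 arrays with medians subtracted (22.5%, against 31.6%) and 9 on channel 1 arrays alone (12.7%, against 33.8%). Among probes with a value on every array it was 1 of 62 members, against 1371 of 6801 probes. Leaving out each extract in turn gave 45 to 50 members on the Myc side and 2 opposite to it, and the extract number as a random block gave 45 and 2. Over all 12888 probes the exclusions gave 3629 to 4116 on the Myc side and 2039 to 2363 opposite to it, and the block 3908 and 2175. The 2 members that passed between extracts (867 of all 12888 probes) became 0 with array medians subtracted (726) and 0 without the dye term (393). The count became 5 among probes with a value on every array (952 of 6801) and 1 without 546-A and 548-A (472 of 12888). The contrasts of number 579 and of tumour progression called 0 members under each alternative.

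With medians subtracted, 60 of all 71 members had a positive mean on channel 1 arrays and 27 on channel 2 arrays, against 7271 and 6052 of all 12888 probes. Among the 34 named genes, means changed sign mostly with the orientation. On channel 1 arrays alone, against the reference, they were 0.27 for Atp5g1, -0.02 for Cox5a, -0.04 for Cox6a1, -1.65 for Cox7a1, 0.33 for Cox7a2, -0.24 for Cox7a2l, -1.44 for Cox8a, -1.14 for Cox8b and -0.37 for Ndufa2. On channel 2 arrays alone they were 0.13 for Cox6a2, -0.62 for Sdhc and -0.08 for Uqcrb. On channel 1 arrays with medians subtracted they were 0.53 for Atp5g1, -1.40 for Cox7a1, 0.58 for Cox7a2, -1.18 for Cox8a, -0.88 for Cox8b and -0.11 for Ndufa2. On channel 2 arrays with medians subtracted they were -0.05 for Atp5l, -0.17 for Cox4i1, -0.07 for Cox5b, -0.11 for Cox6a1, -0.04 for Cox6b1, -0.03 for Ndufa2, -0.24 for Sdha, -1.07 for Sdhc, -0.30 for Sdhd, -0.52 for Uqcrb and -0.05 for Uqcrc2. With medians subtracted on both, Ndufa2 stood at -0.07 and Uqcrb at -0.01, and with 1 mean per extract number Ndufa2 stood at -0.04. Near 0, Cox7a2 became 0.05 without 546-A and 548-A, 0.09 without 550-A and 546-A, and 0.02 to 0.05 without 546-A, 550-A or 561-B alone, and Ndufa2 ran from -0.00 without 579-D to 0.04 over the exclusions of single extracts. The cause was not tested. No paired analysis was possible because the array numbers within an extract mark its 2 channel orientations and do not pair extracts, and the mean of several probes of a gene was not run because each member gene had 1 probe. The single-orientation settings with medians subtracted and the exclusions of 550-A and 546-A were chosen after seeing the data. Signal over background is not known, so that dim members such as Cox4i2 have an unknown floor.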
